A study of Homo sapiens with 12 samples.

Results

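The genes described here are 45 members of the machinery that licenses replication origins, opens DNA and runs the replication fork, read from 12 RNA-seq libraries of A375 cells, a human melanoma line. Members were the rows of the deposited count table whose symbol is on a fixed list of replication genes, 45 of 44659 genes listed, and all 45 were among the 15916 genes tested. The list holds 6 subunits of the origin recognition complex (ORC), 3 helicase loading factors, 6 subunits of the MCM2-7 helicase, 6 helicase activators including the 4 subunits of GINS, the clamp PCNA with 5 subunits of its loader RFC, 8 polymerase and primase subunits, 2 enzymes of Okazaki fragment processing, 3 subunits of RPA, 3 fork protection factors and 2 subunits of ribonucleotide reductase. Cells of the CC group received DMSO for 72 h. Cells of the TC group received 500 nM vemurafenib and 500 nM cobimetinib together for 72 h, a BRAF and a MEK inhibitor (MAPKi), and were harvested at once. Cells of the PC group had the same 72 h of MAPKi and 2 days in drug-free medium, and cells of the RC group had 9 drug-free days. Each group held 3 libraries of cytoplasmic RNA depleted of ribosomal RNA, all from the same line, and nothing in the labels says whether the 3 came from separate cultures, so p-values measure the spread between these libraries, which may be technical. CC and TC were harvested on the same day and PC and RC later, with no DMSO culture kept to those days in the libraries used here, so the harvest day and the drug-free time cannot be told apart.

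Replication is licensed before it starts. In G1, ORC marks origins, and CDC6 and CDT1 load the ring-shaped MCM2-7 helicase onto them while geminin, the product of GMNN, is low. At the start of S phase, MCM10, CDC45 and GINS turn the loaded ring into a working helicase, and polymerases held on DNA by PCNA copy both strands while RPA covers the single strands. Most of these genes are known to be transcribed under E2F factors as cells pass from G1 into S phase, and blocking BRAF and MEK in BRAF-mutant melanoma cells is known to arrest them in G1.

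The libraries held between 37773389 and 55567097 counts over all genes. Levels are given as CPM, counts relative to the total of the library, scaled by TMM, and a call is an adjusted p under 0.05 in edgeR's quasi-likelihood test over all tested genes, with a stricter call for changes beyond 1.5-fold. Depth was ample for these genes, the lowest count of any member in any library being 70, and 3 counts corresponded to between 0.0540 and 0.0794 CPM. Of the melanocyte lineage markers, SOX10 was at 539 to 1068 CPM over the 12 libraries while the pigment genes MLANA and TYR did not pass 1.94 and 5.94 CPM. The 9 markers of that list summed to 1833 to 2010 CPM in CC, 7245 to 10456 in TC, 3662 to 5275 in PC and 1637 to 1698 in RC, and their part in the results below was not tested. The rise of that sum from CC to TC was carried mostly by DCT, whose mean was 407 CPM in the CC libraries against 6456 CPM after treatment (TC). Of the other markers on the list, SOX10, PMEL, MLANA, TYR and TYRP1 were also higher in TC than in CC in every library. The means of PMEL were 616 and 70.1 CPM and those of SOX10 1046 and 659 CPM. S100B was lower in TC than in CC in every library, with means of 140.5 and 264 CPM. MITF, with means of 321 and 362 CPM, and S100A1, with 146 and 138 CPM, overlapped between those groups. Keratinocyte markers summed to at most 2.66 CPM and leukocyte markers to at most 0.695 CPM in any library, and fibroblast markers summed to 28.5 to 38.3 CPM in CC, 8.03 to 9.51 in TC, 9.58 to 13.5 in PC and 21.9 to 24.5 in RC. LUM made up most of that sum in CC at a mean of 27.9 CPM, and was at 6.72 CPM in PC, where COL1A1 was at 3.58 CPM against 0.550 CPM in CC. DCN, another fibroblast marker, did not pass 0.0746 CPM. In bulk RNA, fewer cells in S phase and less RNA of these genes per cell cannot be told apart. Among the CC libraries, replicate 1 was the lowest for 37 of the 45 members, and the median coefficient of variation over members was 13% in CC, 7.26% in TC, 4.56% in PC and 3.32% in RC. More than 20% of the annotated exon bases of MCM2, GINS4, POLA2 and TIPIN also lie in exons of another gene, and the strand setting of the counting is not given in the sources used here, so the counts of these 4 genes are less certain.

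The stretches before the transcription starts are shown because members moved together and E2F sites are known to lie close to the starts of such genes. The table of RefSeq promoters (build GRCh38.p14) holds 39 of the 45 members. It lacks MCM4, MCM5, GINS4, POLD3, RPA2 and RPA3. Within 250 bases before and 50 bases after the listed starts, on either strand, the E2F letters TTTCCCGC, TTTGGCGC, TTTCGCGC or TTTGCCGC were present in 20 of 39 members (51.3%) and in 6.44% of the 11587 tested genes in the table. The letters CCAAT were present in 26 of 39 members (66.7%) and in 43.1% of those tested genes, and the letters TTTGAA or TTCGAA (a CHR element) in 2 of 39 members (5.13%) and in 16%. These matches are descriptions of letters and not measured binding. A gene was counted if any of its listed starts held the letters, and 8 of the 39 members had more than 1 listed start. Below are the 100 bases before the start of 8 members, 5′ to 3′ on the strand of the gene, with the E2F letters in capitals. The first listed start is shown for MCM7, which has 3, and for RRM2, which has 2. The other listed starts of MCM7 hold none of the E2F letters. CDT1, MCM7, MCM6, POLE and RFC3 were chosen because they fell far in TC and hold the letters, ORC3 because it holds them and fell little, and ORC2 and RRM2 because they hold none in this window and fell little and far, respectively.

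CDT1, chr16:88803689-88803788, plus strand: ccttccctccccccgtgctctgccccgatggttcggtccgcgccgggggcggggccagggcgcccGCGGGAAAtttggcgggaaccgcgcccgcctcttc
MCM7, chr7:100101398-100101497, minus strand: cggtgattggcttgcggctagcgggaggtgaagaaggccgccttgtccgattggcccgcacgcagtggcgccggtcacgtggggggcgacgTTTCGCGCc
MCM6, chr2:135876444-135876543, minus strand: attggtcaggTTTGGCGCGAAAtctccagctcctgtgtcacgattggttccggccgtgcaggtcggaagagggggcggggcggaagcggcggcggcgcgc
POLE, chr12:132687343-132687442, minus strand: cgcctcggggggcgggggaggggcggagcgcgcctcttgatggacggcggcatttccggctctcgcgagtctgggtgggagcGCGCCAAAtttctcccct
RFC3, chr13:33818049-33818148, plus strand: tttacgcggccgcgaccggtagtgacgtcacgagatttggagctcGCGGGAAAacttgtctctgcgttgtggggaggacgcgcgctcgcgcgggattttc
ORC3, chr6:87590035-87590134, plus strand: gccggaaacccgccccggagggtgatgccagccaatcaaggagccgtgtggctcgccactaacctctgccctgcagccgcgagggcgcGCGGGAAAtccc
ORC2, chr2:200963661-200963760, minus strand: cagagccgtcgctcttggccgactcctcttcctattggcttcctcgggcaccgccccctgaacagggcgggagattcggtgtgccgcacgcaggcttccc
RRM2, chr2:10122639-10122738, plus strand: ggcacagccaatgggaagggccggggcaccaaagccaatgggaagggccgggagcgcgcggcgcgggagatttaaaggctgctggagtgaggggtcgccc

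The letters of MCM6 are TTTGGCGC overlapping its near mirror GCGCGAAA on the other strand, and the same pair lies again further upstream. Of 27 matches in all members, 12 began within 60 bases before the start and 4 lay after it, in MCM2, CDC6 and GINS1. The TC minus CC log2 fold change had a median of -1.95 over the 20 members with the letters, from -3.92 for CDT1 to -0.39 for GINS3, and of -1.50 over the 19 without, from -3.40 for MCM10 to -0.28 for ORC4. The ranges overlap. MCM10, CDC45, PRIM1, ORC1 and RRM2 fell by 2.59 to 3.40 on the log2 scale with none of these letters in the window. Only exact matches were counted, so a site differing by a single base, such as TTTGGCGG before the start of CDC45, was missed. Whether E2F sites bear on the size of the falls was not tested.

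After 72 h of MAPKi every member was lower than in CC. All 45 were called lower in TC against 34.7% of all tested genes, none was called higher (33.2% of tested genes were), and the median TC minus CC log2 fold change was -1.80, a 3.49-fold lower level, against -0.02 over all tested genes. In all 45 the 3 TC libraries lay below the 3 CC libraries, without overlap, as did those of 34.7% of tested genes. By the stricter rule 37 members were lower beyond 1.5-fold (19.3% of tested genes) and none was higher (16.1%). The summed CPM of the 45 members was 3301, 3900 and 3866 in CC and 1232, 1184 and 1148 in TC. The size of the fall differed widely between members. CDT1 fell 15.1-fold, MCM10 10.6-fold and CDC45 9.75-fold, whereas ORC4 fell 1.22-fold, GINS3 1.31-fold and ORC2 1.34-fold. By subcomplex the median log2 fold change ran from -0.65 for RPA and -0.70 for ORC, through -1.28 for RFC and -1.67 for the polymerases and primase, to -2.11 for GINS, -2.14 for MCM2-7 and -2.31 for all 6 helicase activators.

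**Figure D1:**
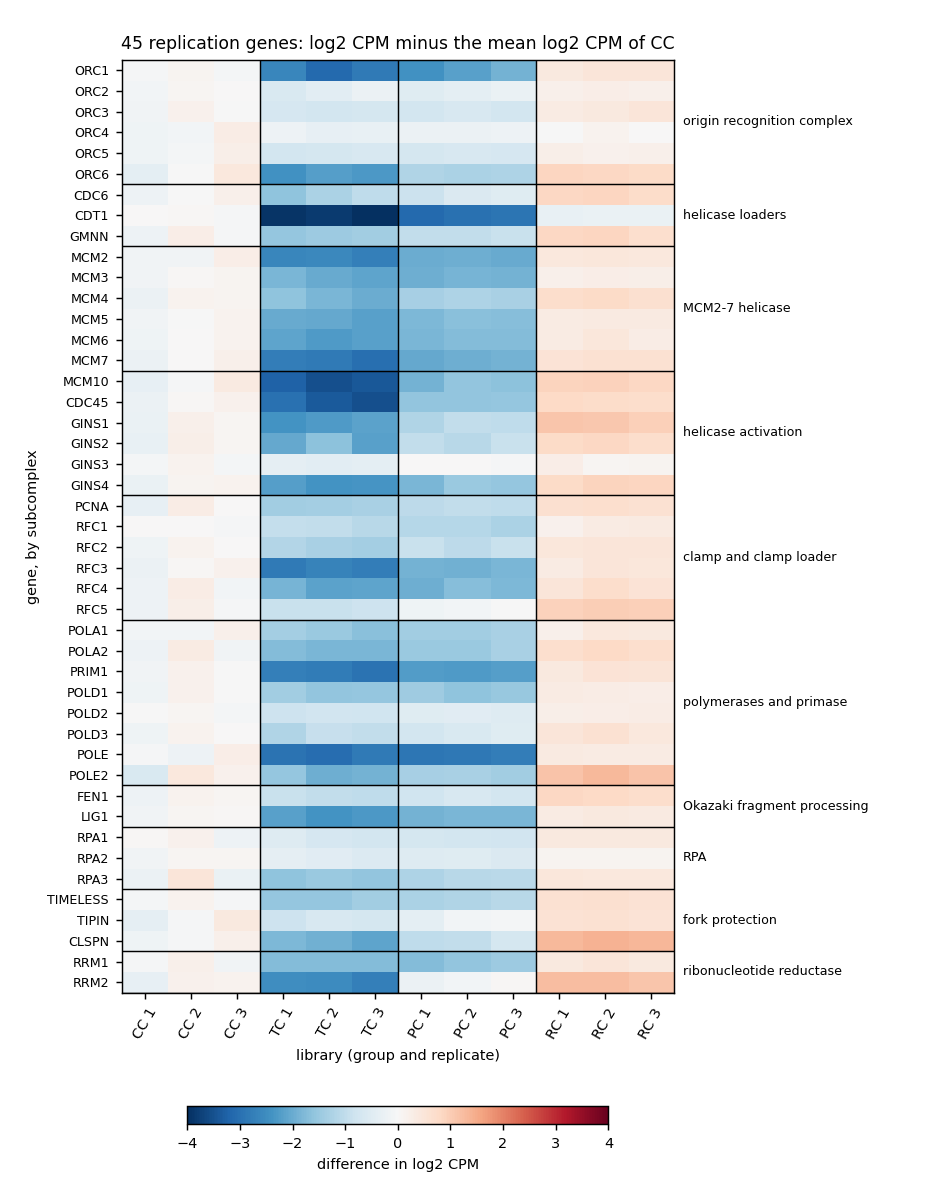
Heat map of 45 replication genes (rows, by subcomplex) in 12 libraries (columns), coloured by log2 CPM minus the mean log2 CPM of the 3 CC libraries of that gene. The TC columns are below 0 in every row, the PC columns are lower than CC in nearly all rows but paler for RRM2, RFC5, TIPIN and GINS3, and the RC columns are above 0 in nearly all rows, with CDT1 below 0 in all 3.

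After 2 drug-free days most members were still low. In PC 40 members were called lower than in CC (35.9% of tested genes were called lower) and none higher (33.2%), with a median log2 fold change of -1.20 against -0.04 over all tested genes. Beyond 1.5-fold, 33 members were lower (19.9% of tested genes) and none higher (17.2%). The 5 members not called were ORC4, GINS3, RFC5, TIPIN and RRM2, with log2 fold changes of -0.24, -0.01, -0.10, -0.22 and -0.11 and edgeR adjusted p between 0.0620 and 0.939. Without CC replicate 1, the count of members lower was 43, with RRM2 at -0.25 (edgeR adjusted p = 0.0322), TIPIN at -0.38 (0.0331) and ORC4 at -0.33 (0.0166) called lower. Compared with TC directly, 27 members had risen in PC (12.2% of tested genes were called higher) and none was called lower (12.5%), with a median log2 fold change of 0.42, and 9 had risen beyond 1.5-fold (2.33% of tested genes) and none was lower beyond it (1.15%). In 33 members the 3 PC libraries lay above the 3 TC libraries (23.7% of tested genes), and in RFC1 they lay below them (23.4% of tested genes), at a log2 fold change of -0.18 (edgeR adjusted p = 0.0640). RFC1 was called lower when only TC and PC were fitted (-0.19, edgeR adjusted p = 0.0470) and without TC replicate 3 (-0.23, edgeR adjusted p = 0.0379). The 9 members beyond 1.5-fold were RRM2 at 2.48, CDC45 at 1.71, MCM10 at 1.68, GINS1 at 1.20, ORC6 at 1.07, CLSPN at 1.05, CDT1 at 0.92, MCM7 at 0.90 and RFC3 at 0.88. POLE, POLD1, MCM3, ORC3, RPA1 and RPA2, with log2 fold changes between -0.09 and 0.11, were among the 18 members not called.

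**Figure D2:**
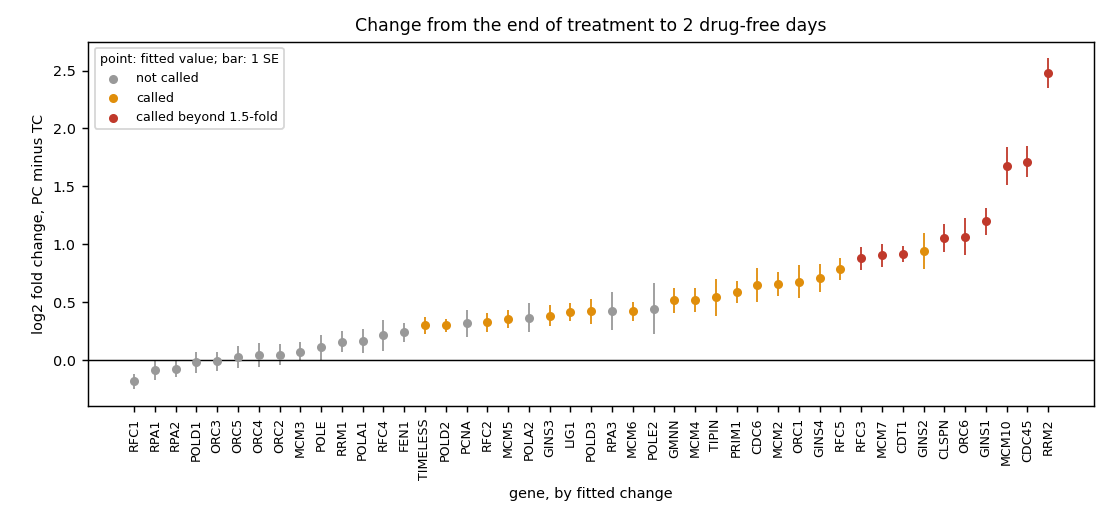
Fitted log2 fold change of PC minus TC for each of the 45 members (points, bars of 1 SE), ordered by size and coloured by call. RRM2 stands highest at 2.48, MCM10 and CDC45 follow near 1.7, and 18 members, mostly at the left, are not called.

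After 9 drug-free days nearly all members stood above CC. In RC 38 members were called higher than in CC (18.2% of tested genes were called higher) and 1 lower (19.1%), with a median log2 fold change of 0.47, a 1.39-fold higher level, against 0.004 over all tested genes. Only 4 passed the stricter rule, CLSPN, RRM2, GINS1 and RFC5 (1.35% of tested genes were higher beyond 1.5-fold), and none was lower beyond 1.5-fold (2.52%). In 39 members the 3 RC libraries lay above the 3 CC libraries, against 23.7% of tested genes. The exception was CDT1, the only member called lower. The 6 not called were ORC2, ORC4, ORC5, GINS3, RPA2 and RPA3. The count of members higher rests in part on the CC libraries. It was 32 without CC replicate 1, the lowest CC library for most members, 40 without CC replicate 3, and 32 without RC replicate 2. Set against PC, 44 members had risen in RC (35.7% of tested genes were called higher) and none was called lower (34.2%), with a median log2 fold change of 1.81, and 40 had risen beyond 1.5-fold (20.2%) and none was lower beyond it (18.5%). GINS3 was the member not called. The call of ORC4 was lost under 9 of the 18 alternatives, with an edgeR adjusted p of 0.155 without RC replicate 2. In all 45 the RC libraries lay above the PC libraries, against 40% of tested genes. The summed CPM was 1519, 1583 and 1606 in PC and 5141, 5310 and 5135 in RC. By group mean RC was the highest group for 44 members and TC the lowest for 40. The comparisons with CC share the CC libraries, and those between consecutive groups share TC or PC.

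**Figure D3:**
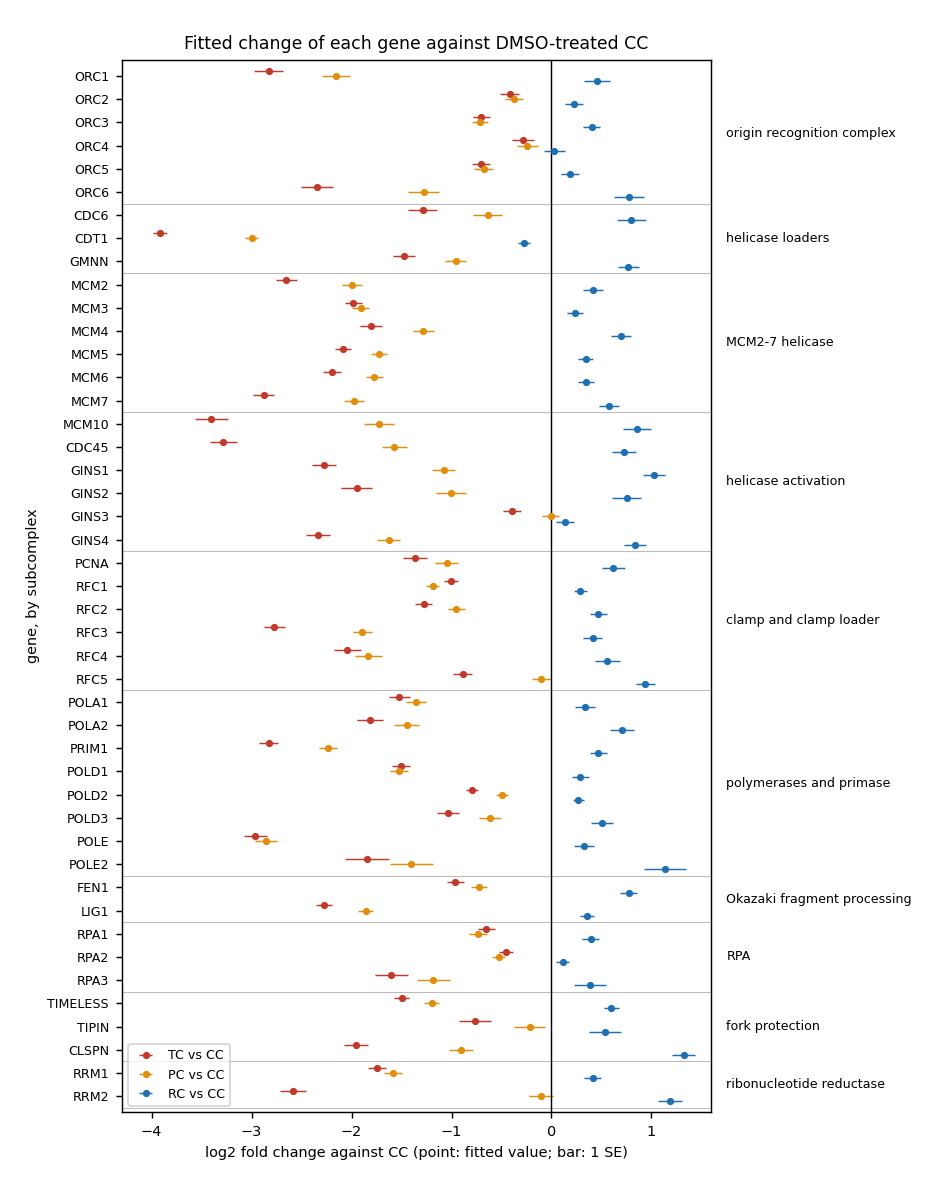
Fitted log2 fold change of TC, PC and RC against CC for each member (points, bars of 1 SE), grouped by subcomplex. TC points are below 0 in every row and reach -3.92 for CDT1, PC points lie between TC and 0 for most rows, and RC points are above 0 except for CDT1 at -0.27.

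The 6 ORC genes split into 2 kinds. ORC1, the large ATPase subunit whose protein is removed once S phase begins in human cells, and ORC6, the most loosely held subunit, fell in TC by 2.83 and 2.35 on the log2 scale, while ORC2, ORC3, ORC4 and ORC5, which form the core, moved by -0.42, -0.70, -0.28 and -0.70. ORC1 (chr1:52372829-52404423, minus strand) was at 19.6, 21.7 and 19.3 CPM in CC, at 3.29, 2.35 and 2.86 in TC, at 3.77, 4.43 and 5.39 in PC, and at 26.6, 28.1 and 28.2 in RC. The 4 groups did not overlap, and the lowest value was that of TC replicate 2. Its log2 fold change was -2.83 ± 0.15 (SE, edgeR adjusted p = 6.94e-09) in TC, -2.15 ± 0.14 (SE, edgeR adjusted p = 4.96e-08) in PC and 0.45 ± 0.13 (SE, edgeR adjusted p = 0.0177) in RC, each against CC. The RC call was lost without CC replicate 1, RC replicate 2 or RC replicate 3 (edgeR adjusted p up to 0.0584). ORC4 (chr2:147930396-148021604, minus strand) was at 36.9, 38.7 and 51.2 CPM in CC, at 36.2, 33.5 and 34.4 in TC, at 35.5, 35.5 and 36.3 in PC, and at 40.96, 46.3 and 42.04 in RC. The 12 values lay within a narrow span, with CC replicate 3 standing above the rest. Its log2 fold change in TC was -0.28 ± 0.11 (SE, edgeR adjusted p = 0.0323), and was -0.12 (edgeR adjusted p = 0.145) without CC replicate 3, so that the call rests on that library. It was lost also without TC replicate 2 or TC replicate 3 (edgeR adjusted p = 0.0925 and 0.0738), when only CC and TC were fitted (0.103) and without the filter on the mean count (0.0534). ORC6 was at 34.7 ± 9.68 CPM in CC (SD, n = 3), 6.83 ± 0.497 in TC, 14.3 ± 0.317 in PC and 59.5 ± 2.09 in RC, and its rise from TC to PC was 1.07 ± 0.16 (SE, edgeR adjusted p = 0.000521). In RC against CC, ORC3 and ORC6 were higher at 0.40 and 0.78, and the values of ORC2, ORC4 and ORC5, not called, were 0.22, 0.03 and 0.19.

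Among the loading factors, CDT1, which brings MCM2-7 to ORC, fell more than any other member, and CDC6, which works beside it, fell less. CDT1 (chr16:88803789-88809258, plus strand) was at 135, 139 and 128 CPM in CC, at 8.76, 9.48 and 8.40 in TC, at 15.7, 16.8 and 17.8 in PC, and at 109.6, 112 and 112 in RC. The TC libraries lay far below CC, PC stayed low, and the RC libraries did not overlap CC and lay below it. The log2 fold change was -3.92 ± 0.07 (SE, edgeR adjusted p = 5.26e-12) in TC, -3.001 ± 0.07 (SE, edgeR adjusted p = 1.94e-11) in PC and -0.27 ± 0.06 (SE, edgeR adjusted p = 0.00479) in RC, and this last call held under each of the 18 alternatives run, with log2 fold changes from -0.30 to -0.24. CDC6 (chr17:40287879-40304657, plus strand) was at 41.7, 47.9 and 55.4 CPM in CC, at 15.8, 19.9 and 23.7 in TC, at 26.6, 31.9 and 34.6 in PC, and at 85.3, 86.7 and 80.6 in RC. Its TC libraries were spread more than those of most members, from 15.8 to 23.7 CPM, yet did not reach the CC range. Its fitted log2 fold change was -1.29 ± 0.15 (SE, edgeR adjusted p = 7.15e-06) in TC and 0.80 ± 0.14 (SE, edgeR adjusted p = 0.00108) in RC. GMNN, which encodes the inhibitor of CDT1, was at 30.8 ± 5.01 CPM in CC (SD, n = 3), 11.1 ± 0.595 in TC, 15.9 ± 0.436 in PC and 52.5 ± 3.47 in RC. It fell in TC by 1.48 on the log2 scale and in RC was 1.70-fold above CC, opposite in direction to CDT1.

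The 6 MCM2-7 genes all fell in TC, by 1.80 to 2.88 on the log2 scale, and all 6 were called in TC, PC and RC against CC. MCM7 (chr7:100092233-100101940, minus strand) was at 251.9, 303 and 341 CPM in CC, at 43.1, 41.9 and 36.7 in TC, at 71.6, 75.97 and 79.9 in PC, and at 431, 452 and 449 in RC. Each group was separate from the others. By edgeR the log2 fold change was -2.88 ± 0.11 (SE, edgeR adjusted p = 5.51e-10) in TC, 0.90 ± 0.10 (SE, edgeR adjusted p = 6.96e-05) from TC to PC and 0.57 ± 0.10 (SE, edgeR adjusted p = 0.000926) in RC against CC. MCM4, the member of the ring that fell least, was at 226, 287 and 282 CPM in CC, at 86.5, 74.2 and 66.8 in TC, at 106, 113 and 108 in PC, and at 432, 444 and 412 in RC. Its groups were also separate, and its log2 fold change was -1.80 ± 0.11 (SE, edgeR adjusted p = 2.14e-08) in TC. MCM2 was at 182 ± 31.2 CPM in CC (SD, n = 3), 28.9 ± 1.76 in TC, 45.6 ± 1.02 in PC and 243 ± 2.61 in RC, MCM3 at 240.2 ± 21.8 CPM in CC (SD, n = 3), 60.8 ± 6.33 in TC, 63.9 ± 2.16 in PC and 282 ± 4.60 in RC, MCM5 at 159.7 ± 16.3 CPM in CC (SD, n = 3), 37.7 ± 2.47 in TC, 48.3 ± 2.08 in PC and 203 ± 3.23 in RC, and MCM6 at 128 ± 14.5 CPM in CC (SD, n = 3), 27.9 ± 1.51 in TC, 37.3 ± 1.32 in PC and 162 ± 8.78 in RC. From TC to PC, MCM2, MCM4, MCM5, MCM6 and MCM7 rose by 0.36 to 0.90 on the log2 scale, while MCM3 differed by 0.07 (edgeR adjusted p = 0.570). The RC call of MCM3, at a log2 fold change of 0.23, was lost under 10 of the 18 alternatives, with an edgeR adjusted p of 0.150 without CC replicate 1.

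The helicase activators held the largest falls after that of CDT1 and also a small fall, that of GINS3. MCM10 (chr10:13161558-13211110, plus strand), which helps the loaded ring to open, was at 18.2, 22.2 and 28.9 CPM in CC, at 2.41, 1.97 and 2.18 in TC, at 6.15, 7.56 and 7.24 in PC, and at 42.00, 43.2 and 40.5 in RC. The groups were separate, and PC lay between TC and CC. On the log2 scale its change was -3.40 ± 0.17 (SE, edgeR adjusted p = 4.27e-09) in TC and 1.68 ± 0.16 (SE, edgeR adjusted p = 2.24e-05) from TC to PC. CDC45 (chr22:19479457-19520612, plus strand), which with GINS and MCM2-7 makes the working helicase, was at 32.7 ± 4.56 CPM in CC (SD, n = 3), 3.37 ± 0.634 in TC, 10.99 ± 0.0855 in PC and 54.2 ± 2.06 in RC, with log2 fold changes of -3.29 ± 0.14 (SE, edgeR adjusted p = 1.19e-09) in TC and 1.71 ± 0.13 (SE, edgeR adjusted p = 4.56e-06) from TC to PC. GINS3 (chr16:58295080-58406147, plus strand) was at 12.5, 14.5 and 12.5 CPM in CC, at 10.2, 9.79 and 10.1 in TC, at 13.2, 13.3 and 12.8 in PC, and at 15.7, 13.7 and 14.04 in RC. Only TC stood apart, and PC overlapped CC. The log2 fold change was -0.39 ± 0.09 (SE, edgeR adjusted p = 0.00189) in TC, -0.01 ± 0.09 (SE, edgeR adjusted p = 0.939) in PC and 0.14 ± 0.09 (SE, edgeR adjusted p = 0.243) in RC, so that GINS3 alone of the 45 was not called in RC against PC (0.15 ± 0.09 (SE, edgeR adjusted p = 0.159)). The other 3 subunits of GINS, a ring of 4 different proteins, fell 4.83-fold (GINS1), 3.86-fold (GINS2) and 5.05-fold (GINS4) in TC. GINS1 was at 29.7 ± 4.76 CPM in CC (SD, n = 3), 6.12 ± 0.508 in TC, 14.1 ± 1.03 in PC and 60.5 ± 3.40 in RC, GINS2 at 28.9 ± 5.20 CPM in CC (SD, n = 3), 7.49 ± 1.53 in TC, 14.4 ± 1.11 in PC and 48.6 ± 2.13 in RC, and GINS4 at 32.8 ± 4.83 CPM in CC (SD, n = 3), 6.49 ± 0.471 in TC, 10.6 ± 1.26 in PC and 58.5 ± 2.74 in RC. In RC against CC they were higher, at log2 fold changes of 1.03, 0.75 and 0.84.

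PCNA, the sliding clamp, and RFC, the 5-subunit complex that opens it, also fell unevenly. RFC3 (chr13:33818069-33966558, plus strand) was at 85.6, 106 and 115 CPM in CC, at 14.2, 15.8 and 14.9 in TC, at 27.2, 26.7 and 28.8 in PC, and at 128, 142 and 138 in RC. The groups were separate. Its fitted log2 fold change was -2.77 ± 0.10 (SE, edgeR adjusted p = 5.18e-10) in TC and 0.88 ± 0.10 (SE, edgeR adjusted p = 6.99e-05) from TC to PC. RFC5 (chr12:118013588-118033130, plus strand), another small subunit, was at 39.5, 53.5 and 44.04 CPM in CC, at 24.2, 24.2 and 25.5 in TC, at 40.1, 42.4 and 45.1 in PC, and at 85.4, 89.7 and 87.6 in RC. PC overlapped CC, while RC lay far above both. By edgeR the log2 fold change was -0.89 ± 0.10 (SE, edgeR adjusted p = 4.32e-06) in TC, -0.10 ± 0.09 (SE, edgeR adjusted p = 0.347) in PC and 0.94 ± 0.09 (SE, edgeR adjusted p = 3.73e-05) in RC. RFC1, the large subunit, was at 132 ± 2.71 CPM in CC (SD, n = 3), 65.7 ± 3.75 in TC, 57.9 ± 2.64 in PC and 161 ± 10.6 in RC, and was lower than CC in both TC and PC at -1.01 and -1.19. RFC2 was at 65.8 ± 7.33 CPM in CC (SD, n = 3), 27.1 ± 1.66 in TC, 34.00 ± 2.00 in PC and 91.2 ± 0.904 in RC, and RFC4 at 45.2 ± 8.85 CPM in CC (SD, n = 3), 10.96 ± 1.11 in TC, 12.7 ± 1.08 in PC and 66.5 ± 5.10 in RC. PCNA was at 62.2 ± 13.1 CPM in CC (SD, n = 3), 24.1 ± 0.659 in TC, 30.1 ± 0.636 in PC and 95.6 ± 2.14 in RC, with log2 fold changes of -1.37 ± 0.12 (SE, edgeR adjusted p = 6.16e-07) in TC, 0.32 ± 0.12 (SE, edgeR adjusted p = 0.0686) from TC to PC and 0.62 ± 0.11 (SE, edgeR adjusted p = 0.00137) in RC. Its adjusted p from TC to PC passed the threshold in DESeq2 (0.0325) and when only TC and PC were fitted (0.00371).

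**Figure D4:**
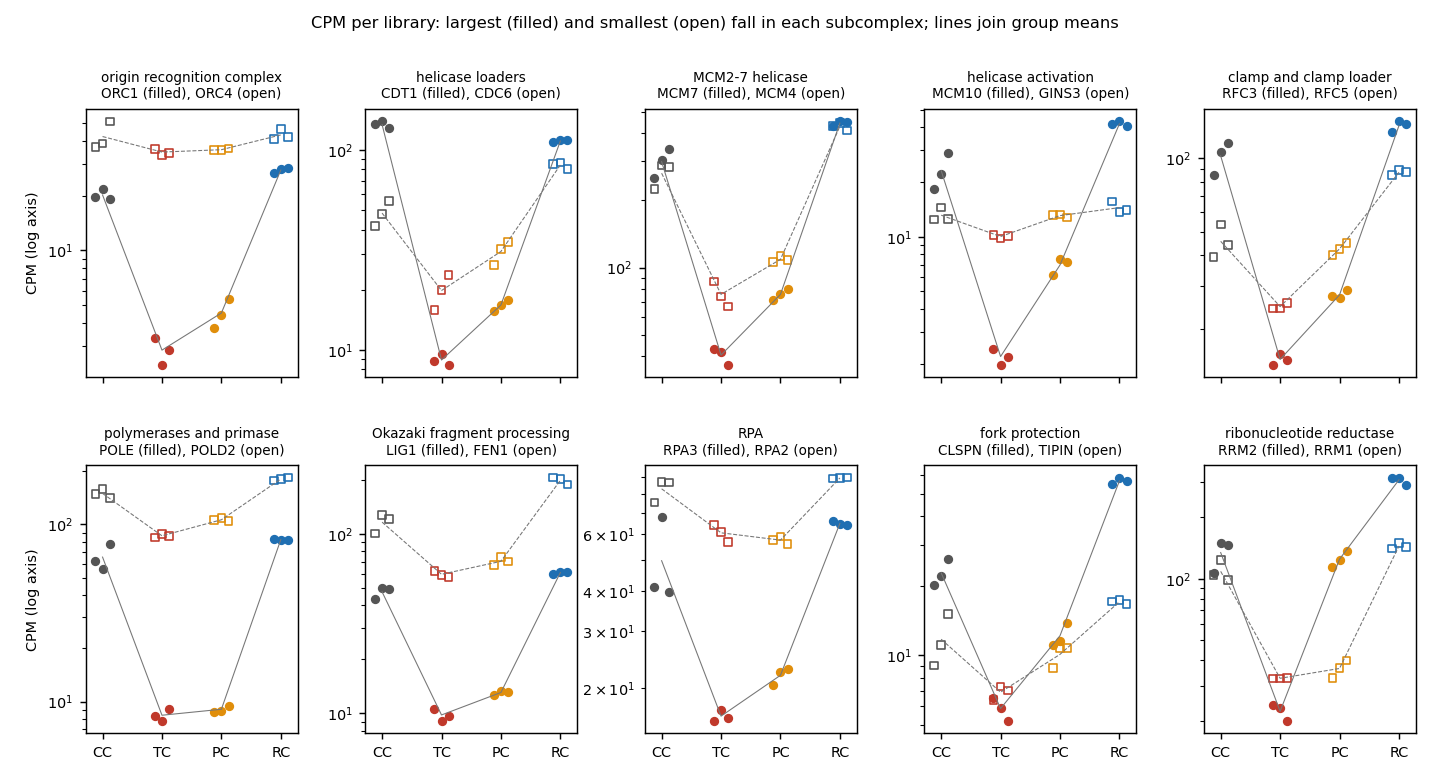
CPM on a log axis in each library for the member with the largest fall (filled) and with the smallest fall (open) in TC against CC in each of 10 subcomplexes, with lines joining group means; levels are not scaled for transcript length. Filled points drop by over 2-fold in TC in every panel, POLE stays near 9 CPM in PC, and RRM2 returns to 114 to 137 CPM in PC.

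All 8 polymerase and primase genes were called lower in TC and in PC and higher in RC, each against CC. POLE (chr12:132623753-132687376, minus strand), the catalytic subunit of polymerase epsilon, which copies the leading strand, was at 62.5, 56.2 and 77.5 CPM in CC, at 8.30, 7.77 and 9.07 in TC, at 8.79, 8.89 and 9.49 in PC, and at 82.5, 82.2 and 81.6 in RC. TC and PC overlapped and lay far below CC. On the log2 scale its change was -2.96 ± 0.11 (SE, edgeR adjusted p = 6.06e-10) in TC, 0.11 ± 0.11 (SE, edgeR adjusted p = 0.515) from TC to PC, 3.18 ± 0.11 (SE, edgeR adjusted p = 3.54e-10) from PC to RC and 0.33 ± 0.10 (SE, edgeR adjusted p = 0.0236) in RC against CC. This last call was lost under 6 of the 18 alternatives, among them without CC replicate 1 (edgeR adjusted p = 0.0782) and without CC replicate 2 (0.0629). POLD2 (chr7:44114631-44124358, minus strand), a small subunit of polymerase delta, was at 149, 159 and 141 CPM in CC, at 84.4, 88.3 and 86.2 in TC, at 106, 109 and 104 in PC, and at 177, 180.3 and 184 in RC. The 4 groups were separate, and its log2 fold change was -0.79 ± 0.06 (SE, edgeR adjusted p = 9.93e-08) in TC. PRIM1, the catalytic subunit of primase, which starts each fragment with RNA, was at 53.4 ± 5.82 CPM in CC (SD, n = 3), 7.52 ± 0.569 in TC, 11.3 ± 0.309 in PC and 73.9 ± 4.13 in RC, with a log2 fold change of -2.83 ± 0.09 (SE, edgeR adjusted p = 2.50e-10) in TC. POLA1 and POLA2, subunits of polymerase alpha, the enzyme that extends those primers, were at 70.6 ± 8.98 CPM in CC (SD, n = 3), 24.6 ± 2.72 in TC, 27.6 ± 1.07 in PC and 88.97 ± 7.02 in RC and at 39.5 ± 8.48 CPM in CC (SD, n = 3), 11.2 ± 0.331 in TC, 14.5 ± 1.07 in PC and 64.4 ± 3.18 in RC, respectively. POLD1, the catalytic subunit of polymerase delta, was at 138 ± 16.7 CPM in CC (SD, n = 3), 48.7 ± 3.64 in TC, 48.1 ± 3.36 in PC and 169 ± 4.12 in RC, and POLD3 at 17.9 ± 1.93 CPM in CC (SD, n = 3), 8.73 ± 0.870 in TC, 11.69 ± 0.963 in PC and 25.4 ± 1.49 in RC. POLE2, the second subunit of polymerase epsilon, had the fewest counts, at 7.24 ± 2.42 CPM in CC (SD, n = 3), 2.01 ± 0.324 in TC, 2.74 ± 0.0887 in PC and 15.9 ± 0.906 in RC. It fell by 1.85 on the log2 scale in TC and in RC was higher than CC by 1.14, with the largest SE of the 45 members (0.21 in RC). The RC calls of POLA1 and POLD1, at 0.33 and 0.29, were lost without CC replicate 1 (edgeR adjusted p = 0.0836 and 0.0854) among other libraries.

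In Okazaki fragment processing, LIG1, the ligase that seals the fragments, fell further than FEN1, the flap endonuclease that trims them. LIG1 (chr19:48115445-48170603, minus strand) was at 43.4, 50.1 and 49.03 CPM in CC, at 10.6, 9.08 and 9.72 in TC, at 12.7, 13.3 and 13.2 in PC, and at 59.9, 61.6 and 61.00 in RC. FEN1 (chr11:61792911-61797238, plus strand) was at 100.4, 127 and 121 CPM in CC, at 62.2, 59.01 and 57.3 in TC, at 66.8, 73.9 and 70.01 in PC, and at 206, 201 and 188 in RC. In both genes each group was separate from the others, with TC lowest and RC highest. The log2 fold change of LIG1 was -2.28 ± 0.08 (SE, edgeR adjusted p = 3.49e-10) in TC and 0.36 ± 0.07 (SE, edgeR adjusted p = 0.00289) in RC, and that of FEN1 was -0.96 ± 0.08 (SE, edgeR adjusted p = 7.17e-07) in TC and 0.77 ± 0.08 (SE, edgeR adjusted p = 5.70e-05) in RC.

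RPA, which coats single-stranded DNA in replication and in repair, had the smallest median fall of the subcomplexes. RPA2 (chr1:27891524-27914746, minus strand) was at 75.1, 86.97 and 86.7 CPM in CC, at 63.9, 60.9 and 56.8 in TC, at 57.6, 58.9 and 55.9 in PC, and at 89.2, 89.7 and 89.9 in RC. TC and PC overlapped each other and lay below CC. The log2 fold change was -0.45 ± 0.07 (SE, edgeR adjusted p = 7.06e-05) in TC and 0.11 ± 0.07 (SE, edgeR adjusted p = 0.213) in RC. RPA3 (chr7:7636518-7718607, minus strand) was at 41.1, 67.9 and 39.8 CPM in CC, at 15.8, 17.1 and 16.2 in TC, at 20.4, 22.3 and 22.9 in PC, and at 65.8, 64.5 and 63.9 in RC. CC replicate 2 stood well above the other CC libraries and above the RC libraries. Its fitted log2 fold change was -1.60 ± 0.17 (SE, edgeR adjusted p = 3.32e-06) in TC and 0.38 ± 0.16 (SE, edgeR adjusted p = 0.0792) in RC, and the latter was 0.68 (edgeR adjusted p = 3.74e-05) without CC replicate 2. It was also called with the replicate block (0.0474) and in DESeq2 (0.0413). RPA1, the large subunit, was at 178 ± 22.96 CPM in CC (SD, n = 3), 113 ± 8.95 in TC, 107 ± 2.26 in PC and 234 ± 1.15 in RC, with no difference called between TC and PC (-0.09 ± 0.09 (SE, edgeR adjusted p = 0.524)). From TC to PC, RPA3 had a log2 fold change of 0.42 ± 0.17 (SE, edgeR adjusted p = 0.0860), without overlap of the libraries, and was called higher in DESeq2 (0.0354), when only TC and PC were fitted (0.00409) and without CC replicate 2 (0.000439) or CC replicate 3 (0.0468).

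The fork protection genes include the largest rise of RC against CC. CLSPN (chr1:35720218-35769978, minus strand), which encodes Claspin, an adaptor that passes the checkpoint signal from stalled forks, was at 20.2, 21.97 and 26.00 CPM in CC, at 6.53, 5.91 and 5.19 in TC, at 11.1, 11.5 and 13.8 in PC, and at 55.1, 58.8 and 56.7 in RC. The lowest RC library stood at 55.1 CPM and the highest CC library at 26.0 CPM, and all groups were separate. By edgeR the log2 fold change was -1.96 ± 0.12 (SE, edgeR adjusted p = 3.47e-08) in TC, 1.05 ± 0.12 (SE, edgeR adjusted p = 8.53e-05) from TC to PC and 1.32 ± 0.12 (SE, edgeR adjusted p = 2.05e-05) in RC. TIPIN (chr15:66336191-66386746, minus strand), the partner of TIMELESS at the fork, was at 9.01, 11.1 and 15.1 CPM in CC, at 6.40, 7.31 and 7.04 in TC, at 8.79, 10.7 and 10.8 in PC, and at 17.1, 17.4 and 16.7 in RC. PC overlapped CC. On the log2 scale its change was -0.76 ± 0.16 (SE, edgeR adjusted p = 0.00110) in TC and 0.54 ± 0.16 (SE, edgeR adjusted p = 0.0189) in RC, and the RC call was lost in 4 of the 18 alternatives, among them without CC replicate 1 (edgeR adjusted p = 0.0631). TIMELESS was at 85.2 ± 7.05 CPM in CC (SD, n = 3), 30.1 ± 2.19 in TC, 37.1 ± 2.38 in PC and 129 ± 2.18 in RC, with log2 fold changes of -1.50 in TC and 0.60 in RC, both called.

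Ribonucleotide reductase makes the deoxyribonucleotides for replication from 2 different subunits, and their genes moved by different amounts. RRM2 fell further than RRM1 in TC, and after 2 drug-free days RRM2 was back in the CC range while RRM1 was not. RRM2 (chr2:10120698-10211725, plus strand), the small subunit, was at 107, 150.3 and 146 CPM in CC, at 23.98, 23.2 and 20.1 in TC, at 114, 124 and 137 in PC, and at 314, 313 and 289.9 in RC. PC overlapped CC, and RC was 2.27-fold above CC. The log2 fold change was -2.59 ± 0.13 (SE, edgeR adjusted p = 5.41e-09) in TC, 2.48 ± 0.13 (SE, edgeR adjusted p = 2.51e-07) from TC to PC, -0.11 ± 0.12 (SE, edgeR adjusted p = 0.440) in PC against CC and 1.18 ± 0.12 (SE, edgeR adjusted p = 4.25e-05) in RC. RRM1 (chr11:4094707-4138932, plus strand), the large subunit, was at 104, 123 and 98.7 CPM in CC, at 32.5, 32.5 and 32.7 in TC, at 32.7, 36.6 and 39.9 in PC, and at 141, 150.2 and 143 in RC. Its PC libraries lay close to TC and far below CC. Its fitted log2 fold change was -1.74 ± 0.09 (SE, edgeR adjusted p = 7.52e-09) in TC, 0.16 ± 0.09 (SE, edgeR adjusted p = 0.224) from TC to PC and 0.41 ± 0.09 (SE, edgeR adjusted p = 0.00324) in RC.

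Ratios of CPM within a library were compared for 3 pairs of genes whose products work together or against each other, with an exact permutation test over all 369600 ways to assign 12 libraries to 4 groups of 3. The ratio of RRM2 to RRM1 had a geometric mean of 1.23 in CC, 0.687 in TC, 3.43 in PC and 2.11 in RC, and the 3 libraries of each group ranged from 1.03 to 1.48, 0.615 to 0.738, 3.39 to 3.48 and 2.03 to 2.22. No group overlapped another. The ratio of CDT1, the loader, to GMNN, its inhibitor, was 4.39 in CC, 0.802 in TC, 1.06 in PC and 2.12 in RC, with ranges of 3.83 to 5.05, 0.720 to 0.857, 1.01 to 1.09 and 2.03 to 2.30, so that RC had returned to neither the level nor the range of CC. The ratio of ORC1 to ORC2, the largest subunit against a core subunit, was 0.630 in CC, 0.118 in TC, 0.182 in PC and 0.739 in RC, with ranges of 0.593 to 0.655, 0.0987 to 0.156, 0.163 to 0.203 and 0.721 to 0.764. For each of the 3 ratios the exact permutation p was 6.494e-05, the smallest these assignments can give, and stayed 6.494e-05 after Benjamini-Hochberg adjustment over the 3. The test asks whether the 4 groups differ at all and compares no pair of groups. It uses the same values as the fold changes given above, so it adds no separate support to them.

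**Figure D5:**
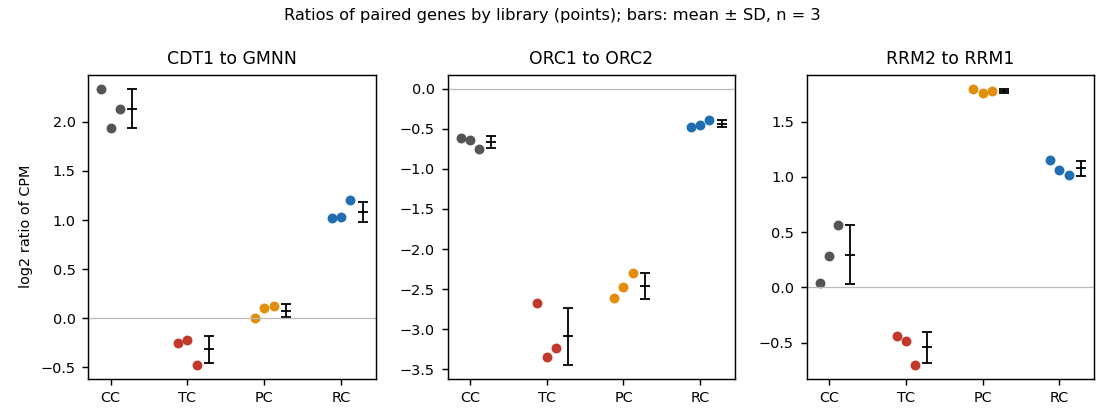
The log2 ratio of CPM of CDT1 to GMNN, ORC1 to ORC2 and RRM2 to RRM1 in each of the 12 libraries (points), with the mean and SD of each group beside them. TC is the lowest group in all 3 panels, while PC is the highest for RRM2 to RRM1 and close to TC for the other 2.

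Levels were compared between members as mean CPM per kilobase of the canonical GENCODE transcript, since counts scale with length. In CC, MCM7 was highest at 121, followed by POLD2 at 93.1, MCM3 at 78.3 and MCM4 at 65.2, and the lowest were POLE2 at 4.28 and CLSPN at 2.67. In TC the order changed, with POLD2 at 53.6, RPA2 at 38.2 and FEN1 at 29.5 leading, MCM7 at 16.4 and MCM10 lowest at 0.481. Within ORC, ORC1 and ORC4 were alike in CC, with 6.17 to 6.94 and 5.63 to 7.82 CPM per kilobase over the 3 libraries, and did not overlap in TC, with 0.754 to 1.05 and 5.12 to 5.53.

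Of 41 other replication genes on a list of licensing, fork, chromatin assembly and nucleotide genes, 40 were tested, and CHTF8 was listed at 0 counts throughout. In TC 29 were lower (34.7% of all tested genes were) and 6 higher (33.2%), with a median log2 fold change of -1.24. The largest falls were those of TOP2A, the topoisomerase that untangles replicated DNA, from 645 to 28.1 CPM (log2 fold change -4.52 ± 0.15 SE, edgeR adjusted p = 2.15e-10), PCLAF, a PCNA-binding factor, from 62.4 to 4.01 CPM (log2 fold change -3.97 ± 0.17 SE, edgeR adjusted p = 1.33e-09), and DTL, the adaptor of the ligase that destroys CDT1 in S phase, from 45.4 to 4.86 CPM (log2 fold change -3.23 ± 0.14 SE, edgeR adjusted p = 1.50e-09). The largest rises were those of ASF1A, a histone chaperone, from 8.80 to 26.4 CPM (log2 fold change 1.58 ± 0.13 SE, edgeR adjusted p = 3.15e-07), RNASEH2C, a subunit of RNase H2, from 48.4 to 102 CPM (log2 fold change 1.07 ± 0.07 SE, edgeR adjusted p = 3.11e-08), and POLD4, the smallest subunit of polymerase delta, from 58.7 to 104 CPM (log2 fold change 0.83 ± 0.15 SE, edgeR adjusted p = 0.000270). Thus POLD4 moved opposite to POLD1, POLD2 and POLD3. The counts lower and higher were 27 and 6 for PC against CC (35.9% and 33.2% of tested genes). For RC against CC they were 1 and 27 (19.1% and 18.2%). They were 2 and 20 for PC against TC (12.5% and 12.2%), and 6 and 31 for RC against PC (34.2% and 35.7%). In RC the 1 lower was RRM2B, the other small subunit of ribonucleotide reductase, named after its value was seen.

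The share of codons for aspartate and glutamate was read from the coding sequences. Over the canonical coding sequences of all 45 these codons made up 10.4% to 22.3% of codons with a median of 13.9%, against a median of 11.9% over 12726 tested genes, and 35 of 45 members lay above that median. CLSPN at 22.3%, TIPIN at 20.6% and GMNN at 20.1% were highest, and CDC6 and RPA2 at 10.4% lowest. The codons GAA and GAT alone made up a median of 6.74% against 5.00%, from 1.54% in POLD1 to 14.8% in GMNN. Across the 45 members, which share libraries and differ in length and base composition, Spearman's rho between the share of aspartate and glutamate codons and the TC minus CC log2 fold change was -0.245, and for GAA and GAT it was 0.158. CDT1, which fell furthest, had 10.99% aspartate and glutamate codons. MCM10 and CDC45, next in the size of the fall, had 14.3% and 15.4%. Whether codon content bears on the falls was not tested.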

How the data were processed

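RNA-seq of cytoplasmic, ribosomal RNA-depleted RNA was analysed for 4 groups of 3 A375 libraries. Per the labels and the submitters' processing notes, the authors trimmed reads with fastp 0.20.1, aligned them with HISAT2 2.2.1 to GRCh38.p13 and counted them per gene with HTSeq 0.13.5. The strand setting and the handling of multiply mapped reads are not given in the sources used here. The deposited values are raw read counts per gene symbol for the 12 libraries, with totals of 37773389 to 55567097 counts. Genes with a mean scaled count of at least 10 (15916 of 44659) were tested with the quasi-likelihood test of edgeR 4.0.16 in R 4.3.3, using TMM, all 12 libraries and no block. The two-sided p-values were adjusted by Benjamini-Hochberg over all tested genes, and glmTreat tested against 1.5-fold. Fold changes are first group minus second on the log2 scale. The ratios used an exact two-sided permutation test. Alternatives were a filter at a summed count of 2, DESeq2 size factors, library totals, DESeq2 1.42.0, only the groups compared, the replicate number as a block, and leaving out each library. The scripts were tested on simulated data. The replicate numbers were not taken as pairs, and no 2 libraries agreed within counting noise. Gene positions and transcript lengths came from GENCODE on GRCh38 and promoters from RefSeq on GRCh38.p14. Members, subcomplexes and lists were chosen with earlier results of these data known. Any member could be named, and values in every library are given for the largest and the smallest fall of each subcomplex. Of the other replication genes, the 3 largest rises and falls in TC are named.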

Additional observations from a re-analysis of the deposited data

Results flagged for a closer look

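From the end of treatment to 2 drug-free days, 9 members differed beyond 1.5-fold (glmTreat in edgeR, adjusted p under 0.05), so that their change against CC differed between PC and TC. All 9 were higher in PC, as were 2.33% of tested genes by the same rule. The log2 fold change of PC minus TC was 2.48 for RRM2, 1.71 for CDC45, 1.68 for MCM10, 1.20 for GINS1, 1.07 for ORC6, 1.05 for CLSPN, 0.918 for CDT1, 0.904 for MCM7 and 0.879 for RFC3. In each of the 9 the 3 PC libraries lay above the 3 TC libraries, as in 23.7% of tested genes. The 9 were picked by this same comparison, so that separation adds no support. The adjusted p of that test ranged from 9.69e-07 for RRM2 to 0.0395 for RFC3. PC was harvested 2 days after TC, and the harvest day cannot be told apart from the drug-free time. Dixon's test for a single far library was not run, since each group held 3 libraries.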

How the results depend on the processing

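Of 229 values of counts and ratios under alternatives, 224 stayed within 1.5 times the main count or on the same side of the threshold. The exceptions were the count of members beyond 1.5-fold, which was 0 lower and 4 higher for RC against CC and 9 higher for PC against TC, and the members lower in PC against TC, 1 when only these groups were fitted and 0 to 1 when each library was left out. Leaving out each library gave 44 to 45 members lower in TC, 40 to 43 lower in PC, 32 to 40 higher in RC, 23 to 31 higher from TC to PC and 43 to 44 higher from PC to RC. The largest exact p of the 3 ratios on leaving out a library was 0.0007143, for ORC1 to ORC2. It was the same whether PC replicate 1, 2 or 3 was the single library left out. Of 4050 fold changes of single members under alternatives, 3931 kept direction and side of the threshold, 56 lost and 38 gained a call, and 25 changed sign. The cause was not tested. All sign changes were in values not called in the main fit, most of them close to 0. TIPIN in PC against CC, at -0.22 in the main fit, changed sign only without CC replicate 3. GINS3 in PC against CC was at 0.0019 with the filter of a summed count of 2, 0.018 with DESeq2 size factors, 0.017 in DESeq2 and 0.0015 when only these groups were fitted. ORC3 from TC to PC was at 0.0030 with DESeq2 size factors, 0.0052 with library totals and 0.0032 in DESeq2. Leaving out each library gave -0.045 to 0.066 for GINS3, -0.20 to 0.026 for RFC5 and -0.38 to 0.016 for TIPIN in PC against CC, -0.060 to 0.20 for ORC4 in RC against CC, and -0.031 to 0.14 for ORC2, -0.041 to 0.0091 for ORC3 and -0.070 to 0.052 for POLD1 from TC to PC. With the replicate number as a block, 45 members were lower in TC, 40 lower in PC, 39 higher in RC, 27 higher from TC to PC and 44 higher from PC to RC; the labels do not say that a number marks a shared culture. The deviations of same-numbered libraries from their group means correlated at 0.0641 to 0.202 between TC and PC, against -0.174 to -0.00344 for other numbers, and at 0.0446 to 0.0938 between CC and TC, and in both pairs of groups all 6 libraries correlated best with their own number, a hint that these numbers may be shared. Between TC and RC the correlations were -0.0320 to 0.00135, with 0 of 6 libraries highest for their own number. Each scaling kept the median of all genes within 0.041 of 0 on the log2 scale. Depth limits none of the members, while POLE2 had the widest SE.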
